A study of Mus musculus with 24 samples.

Results

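The 10 genes described here encode 3 receptors (Notch1, Notch2, Notch3), 3 ligands (Dll1, Jag1, Jag2) and 4 target repressors (Hes1, Hey1, Hey2, Heyl) of the Notch pathway. They were chosen by name, with earlier results of these data known. All 10 were found among the 20782 genes of a normalized expression table from mouse lumbar dorsal root ganglia, the clusters of sensory neuron cell bodies beside the spinal cord. The study is about axon regeneration and the calcium channel subunit alpha2delta2, and the table holds 24 RNA-seq libraries in 8 groups of 3. Adult ganglia had been dissociated and plated on laminin in Neurobasal-A with B-27, and the cells were collected after 6, 12, 24 and 36 h. A second set holds adult L4 and L5 ganglia, either conditioned by a peripheral lesion or sham-operated, and the remaining set holds embryonic lumbar ganglia at E17.5 and E12.5. Neither strain, sex, adult age nor the interval between lesion and collection is given in the sources used here, and the labels name no transgene. Cell sorting is part of the protocol attached to all libraries, but whether the embryonic and operated ganglia were sorted is not stated.

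Notch signalling runs between touching cells. A Delta or Jagged ligand on one cell binds a Notch receptor on its neighbour, ADAM proteases and gamma-secretase then cut the receptor, and the freed intracellular domain joins RBPJ and Mastermind proteins in the nucleus to switch on Hes and Hey genes. In the embryonic peripheral nervous system the pathway is known for holding neural crest derived precursors back from becoming neurons and for favouring glia. In blood vessels, Notch3 and Heyl are known from mural cells, and Dll4, Jag1 and Notch1 from endothelium.

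Sequences at gene starts, as RefSeq places them, are given for the receptor that stood highest, the receptor with the widest range of the 3, and the 1 target that moved against the others in embryos. RefSeq (GRCm38.p6) windows from 250 bases before to 50 bases after the gene start were at hand for 7 of the 10 genes, and not for Hes1, Hey1 and Heyl. In the first line capitals mark the RBPJ core motif TGGGAA or its reverse complement TTCCCA. In the other lines they mark the GC box GGGCGG or its reverse complement CCGCCC, the element bound by Sp factors.
Hey2 (chr10:30842734-30843033, minus strand): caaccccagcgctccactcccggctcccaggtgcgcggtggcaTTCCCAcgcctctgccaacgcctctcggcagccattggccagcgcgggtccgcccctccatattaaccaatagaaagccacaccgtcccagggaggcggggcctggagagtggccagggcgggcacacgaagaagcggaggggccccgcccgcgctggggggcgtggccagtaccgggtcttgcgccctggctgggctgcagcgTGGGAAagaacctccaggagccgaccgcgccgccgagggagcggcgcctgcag
Notch1 (chr2:26503773-26504072, minus strand): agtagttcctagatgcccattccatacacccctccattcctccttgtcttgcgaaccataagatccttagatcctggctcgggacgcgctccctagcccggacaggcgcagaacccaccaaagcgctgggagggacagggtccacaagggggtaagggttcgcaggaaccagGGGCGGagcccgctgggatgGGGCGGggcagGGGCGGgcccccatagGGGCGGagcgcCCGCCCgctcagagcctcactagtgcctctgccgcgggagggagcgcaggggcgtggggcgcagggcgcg
Notch3 (chr17:32166841-32167140, minus strand): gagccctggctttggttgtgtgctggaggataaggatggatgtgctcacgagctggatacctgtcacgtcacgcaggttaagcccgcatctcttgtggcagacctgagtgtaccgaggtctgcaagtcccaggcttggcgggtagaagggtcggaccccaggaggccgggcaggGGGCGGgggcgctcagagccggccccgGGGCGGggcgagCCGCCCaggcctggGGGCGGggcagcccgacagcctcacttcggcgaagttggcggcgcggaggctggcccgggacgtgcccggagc
The Hey2 window held the RBPJ core with first bases 207 and 3 bases before the gene start. Hey2 was the only 1 of the 7 genes with this motif, against 25.6% of all 32851 windows in the RefSeq table. GC boxes stood at 5 of the 7 genes, against 35.7% of all windows, with 5 in the Notch1 window and 4 in the Notch3 window. For both motifs a gene counted if any of its windows held a match, whereas the shares count each window singly. In the Hey2 window 0 pairs of the motifs overlapped, and a match describes letters only, not a bound site. The RefSeq start used for Notch1 lies 12841 bases inside the gene as GENCODE M21 draws it, so the printed Notch1 window is not at the start of that longer gene model. For Notch3 and Hey2 the starts in these annotations differ by fewer than 50 bases.

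The libraries held 3.10 to 25.7 M reads each. The 5 shallowest, all under 5 M, were replicate 3 at 6 h, replicate 1 at 12 h, replicate 1 at 24 h and replicates 2 and 3 at E17.5. The lowest count behind any value of the 10 genes was 9 reads, for Notch3 in replicate 3 at 6 h and for Jag2 in replicate 1 at 12 h. Replicate 3 at E12.5 stood apart from the other 2 libraries of its group in Notch1 and Dll1. At E12.5, 86 genes held values equal to a trimmed mean over all libraries, read here as replaced values, and 0 of the 10 genes were among them. Only values of at least 3 reads were searched, so replaced values below that would be missed. The libraries are labelled as neurons, and the summed level of 10 neuronal markers was 76410 to 270945 in the other 7 groups and 34681 to 52370 at E12.5. All genes of the satellite glia, Schwann cell, endothelial and mural lists were above 0 in every group too, so the values describe mixtures. Fewer cells of a type and less RNA per cell cannot be told apart in such libraries. Values below are normalized read counts, and n is 3 libraries per group throughout. No label ties the libraries to separate animals, so each p-value reflects only how far these samples spread, and that spread may be technical.

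**Figure D1:**
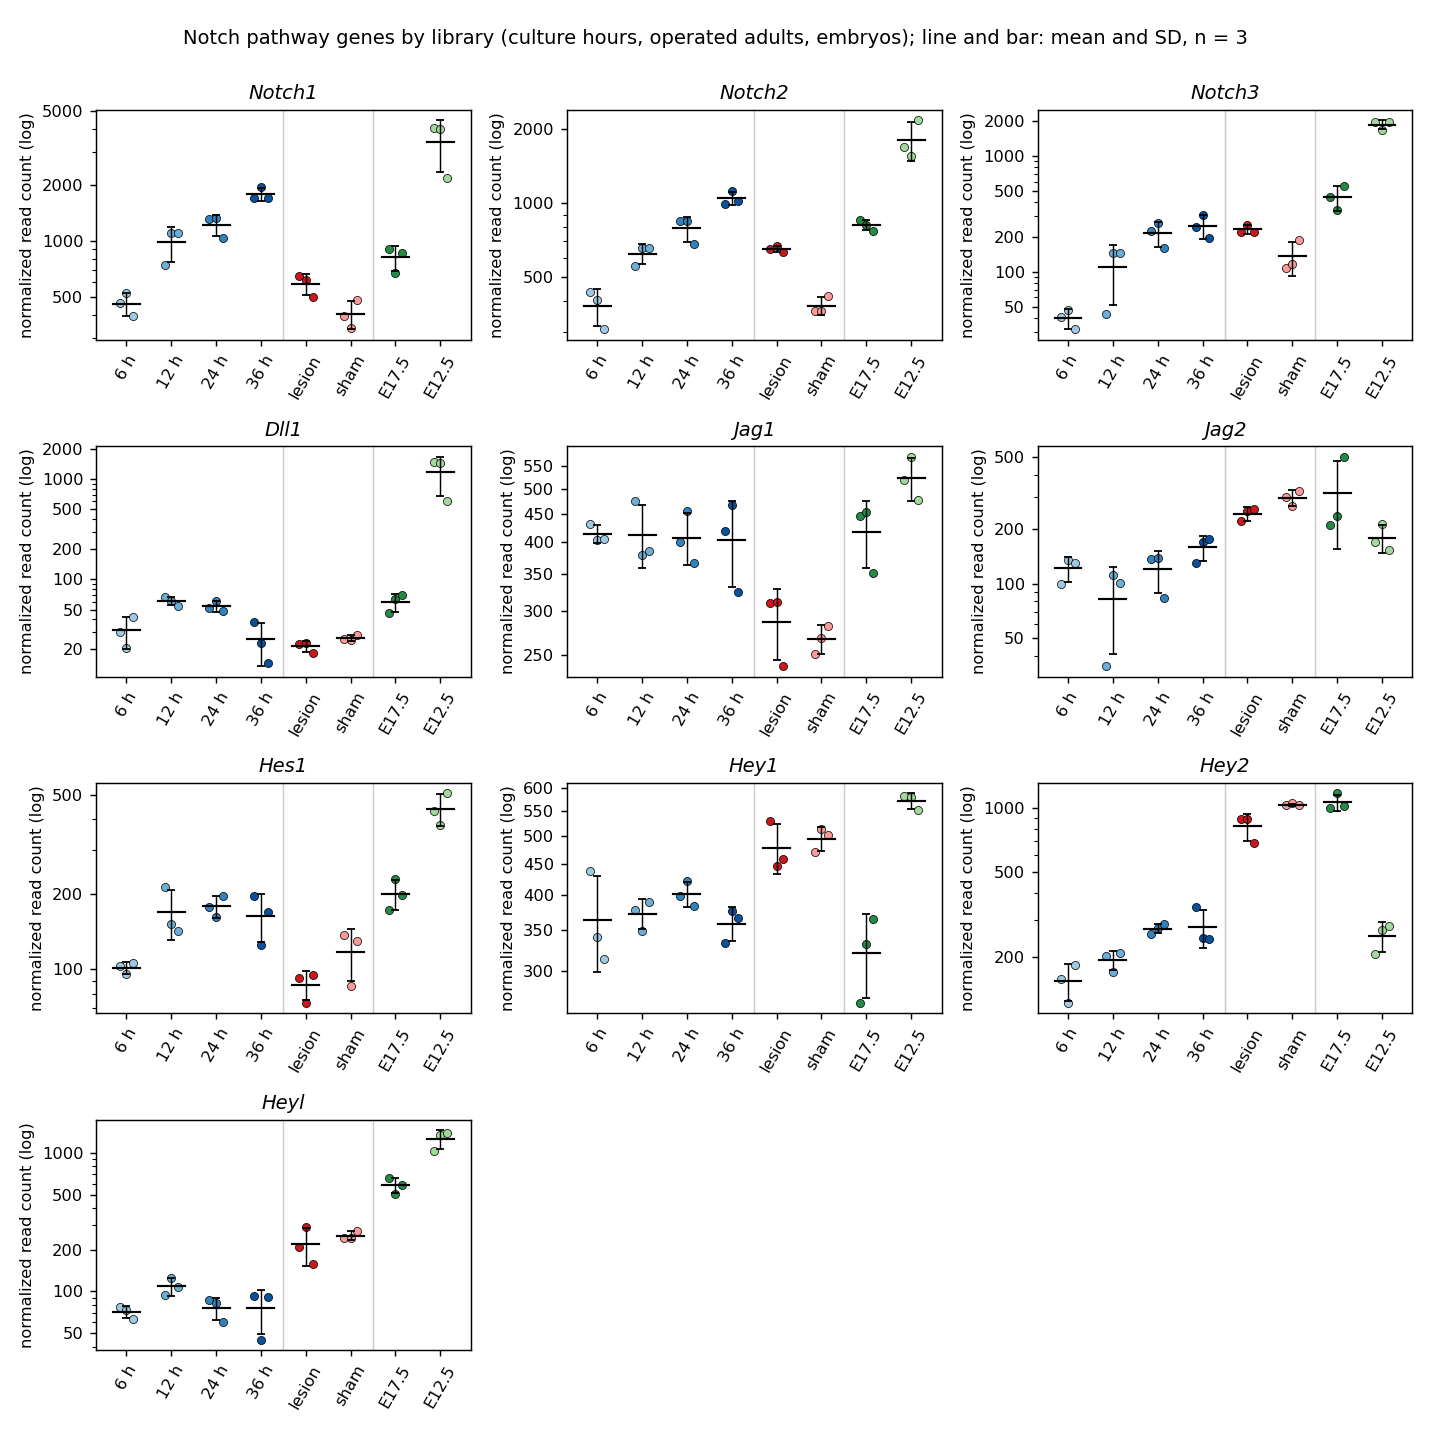
Normalized read count (log axis) of each gene in all 24 libraries; each point is 1 library, the line and bar are the mean and SD of 3. The highest group mean is at E12.5 for 8 of the 10 genes, and at E17.5 for Jag2 and Hey2.

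In the embryonic ganglia, 7 of the 10 genes were lower at E17.5 than at E12.5 and 1 was higher. The E17.5 libraries are numbered 336 to 338 and the E12.5 libraries 84 to 87, so stage and library number series cannot be told apart. The test was limma on log2(value + 1) with Benjamini-Hochberg adjustment over all genes of the fit, and a gene was called where the adjusted p was below 0.05. Of all 14550 genes tested, 63% were called, 31.9% as lower and 31.1% as higher. The median log2 change was -1.11 over the 10 genes and -0.05 over all genes.

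All 3 receptors were lower at E17.5. Notch1 was at 904, 674 and 862 at E17.5, against 4061, 3981 and 2173 at E12.5. The lowest E12.5 library, replicate 3, was still above every E17.5 library, and the log2 change was -2.02 ± 0.24 (SE, limma adjusted p = 0.000126). Without that library it was -2.32 (limma adjusted p = 1.22e-05). Notch3, the receptor best known from mural cells, was at 439.8, 339 and 553 at E17.5, against 1975, 1670.4 and 1957 at E12.5 (log2 change -2.10 ± 0.18, limma adjusted p = 1.89e-05). The groups were far apart and the E12.5 libraries lay close together. Notch2 averaged 815 ± 38.7 at E17.5 and 1810.05 ± 329 at E12.5 (SD; log2 change -1.14 ± 0.15, limma adjusted p = 0.000185).

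The largest change among the 10 was that of Dll1, the Delta ligand carried by newly forming neurons in many embryonic tissues. It was at 46.3, 63.5 and 69.4 at E17.5, against 1481, 1444 and 603 at E12.5. Replicate 3 was again the low library at E12.5, yet it stood well above all E17.5 libraries. The log2 change was -4.18 ± 0.34 (limma adjusted p = 1.27e-05), and -4.61 without that library. The Jagged ligands were not called. Jag1 averaged 417 ± 57.3 at E17.5 and 523 ± 47.0 at E12.5 (log2 change -0.33, 95% interval -0.67 to 0.01, limma adjusted p = 0.0835). Jag2 was at 211, 236 and 502 at E17.5, against 169, 213 and 154 at E12.5. One E17.5 library stood far above the other 2, and the log2 change of 0.72 ± 0.31 had a limma adjusted p of 0.0722. Jag2 passed the threshold with DESeq2 (adjusted p = 0.0202) and without E17.5 replicate 1 (limma adjusted p = 0.0436). Without replicate 3, the high E17.5 library, its log2 change was 0.33 (limma adjusted p = 0.161), and over all alternatives the adjusted p ran from 0.0202 to 0.168.

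Among the targets Hey2 went the other way. It was at 997, 1167 and 1019.7 at E17.5, against 207, 267 and 281 at E12.5, with a log2 change of 2.08 ± 0.15 (limma adjusted p = 7.73e-06). The groups did not overlap, and every E17.5 library was more than 3 times the highest E12.5 library. Hes1, the target classically induced in precursors, averaged 200.4 ± 28.1 at E17.5 and 438 ± 63.7 at E12.5 (log2 change -1.12 ± 0.17, limma adjusted p = 0.000452). Heyl averaged 584 ± 74.2 at E17.5 and 1261 ± 198 at E12.5 (log2 change -1.11 ± 0.16, limma adjusted p = 0.000351). Hey1 averaged 321 ± 50.8 at E17.5 and 572 ± 16.4 at E12.5 (log2 change -0.84 ± 0.15, limma adjusted p = 0.00117). Only Jag2 had overlapping libraries; the other 9 genes were free of overlap, as were 69.8% of all genes tested.

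Other parts of the pathway were read from 59 genes, of which 51 were tested here. Of these 9 were higher and 24 lower at E17.5, with a median log2 change of -0.35, against 63% of all genes called. One of the 9, Hes5, held trimmed mean values in all 3 E12.5 libraries. Nuclear complex and corepressor genes were lower in 11 of 14, with 1 higher. Rbpj, the DNA-binding partner of Notch, averaged 976 ± 39.6 at E17.5 and 2276 ± 135 at E12.5 (log2 change -1.22, limma adjusted p = 2.32e-05). Of 5 glycosylation genes 3 were lower, among them Mfng, a Fringe enzyme that modifies Notch, at 51.1 ± 18.7 at E17.5 and 421 ± 87.8 at E12.5 (log2 change -3.06, limma adjusted p = 2.45e-05). Dtx1, a Deltex ligase of the pathway, averaged 20.8 ± 6.82 at E17.5 and 223 ± 23.0 at E12.5 (log2 change -3.41, limma adjusted p = 1.07e-05). Receptor processing genes were mixed, with 3 of 10 higher and 1 lower, and Psen2, a catalytic subunit of gamma-secretase, averaged 147 ± 13.2 at E17.5 and 47.1 ± 5.22 at E12.5 (log2 change 1.63, limma adjusted p = 0.000109). Notch4 (123 ± 24.3 at E17.5 and 204 ± 23.6 at E12.5, limma adjusted p = 0.00951) and the endothelial ligand Dll4 (66.2 ± 11.5 at E17.5 and 106 ± 22.5 at E12.5, limma adjusted p = 0.0349) were lower, but Dll4 lost its call with DESeq2 (adjusted p = 0.0600) and without E12.5 replicate 1 or 3 or E17.5 replicate 1 or 2 (limma adjusted p = 0.0664, 0.112, 0.0507 and 0.0827).

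Cell type markers moved between the same libraries. Of 10 markers of neural crest and dividing precursors 8 were lower at E17.5, with a summed level of 9865 to 12454 at E17.5 and 34131 to 43996 at E12.5, while Sox10 (1098 ± 317 at E17.5 and 1138 ± 301 at E12.5, limma adjusted p = 0.870) was not called. Of 10 neuronal markers 9 were higher. A list of 13 spinal cord genes summed to 31.0 to 98.8 at E17.5 and 791 to 1515 at E12.5. In that list Pax6 held trimmed mean values in all 3 E12.5 libraries, and Pax2 in E12.5 replicates 2 and 3. Myelinating Schwann cell markers were higher in 8 of 10, with sums of 9396 to 10888 at E17.5 and 1426 to 2006 at E12.5. Fibroblast markers were higher in 6 of 8 with 1 lower (34557 to 44205 at E17.5 and 8197 to 18322 at E12.5), and mural cell markers in 4 of 10 with 1 lower. Satellite glia markers were higher in 6 of 10 with 2 lower (16201 to 21446 at E17.5 and 9465 to 13877 at E12.5), and macrophage markers in 4 of 8. Endothelial markers were split, with 2 of 12 higher and 2 lower. The part of these lists in the Notch results was not tested.

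After the peripheral lesion the 3 receptors were higher than after sham surgery, and 2 other genes, Jag2 and Hey2, were lower. In all 14556 genes tested, 41.2% were called, 20.9% as higher and 20.2% as lower. Libraries of the 2 groups were free of overlap in 6 of the 10 genes and in 52.5% of all genes. The median log2 change was -0.15 over the 10 genes and -0.01 over all genes. Notch2 was at 654, 673 and 634 after lesion, against 363, 366 and 421 after sham surgery. The libraries within each group lay close together and the groups did not overlap, with a log2 change of 0.77 ± 0.09 (limma adjusted p = 1.54e-05). Notch3 was at 221, 256 and 221 after lesion, against 107, 116 and 189 after sham surgery (log2 change 0.80 ± 0.18, limma adjusted p = 0.00491). Notch1 was at 643, 616 and 498 after lesion, against 394, 338 and 477 after sham surgery (log2 change 0.55 ± 0.13, limma adjusted p = 0.00534). For both genes the highest sham library was replicate 3, which was below the lowest lesion library.

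The operated libraries carry numbers from 2 series, 69 to 75 and 123 to 124, and replicate 3 of each group is of the later one. Within the earlier series the log2 difference was 0.79 for Notch1, 0.86 for Notch2 and 1.09 for Notch3. Between the single later pair it was 0.06, 0.59 and 0.23 in the same order, with no replicate there. With the number series as a covariate the 3 receptors kept their calls (limma adjusted p = 0.0103 for Notch1, 4.54e-05 for Notch2 and 0.00289 for Notch3). In 1 fit over all 24 libraries, which shares the spread of all groups, only Notch2 remained called of the 5 genes, with adjusted p of 0.0693 for Notch1 and 0.0973 for Notch3 by limma.

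Hey2 was at 885, 892 and 684 after lesion, against 1033, 1048 and 1027 after sham surgery (log2 change -0.35 ± 0.10, limma adjusted p = 0.0110). The sham libraries were nearly equal, and all lesion libraries were below them. Without lesion replicate 3, its low library, the log2 change of Hey2 was -0.22 (limma adjusted p = 0.0402). It was -0.23 within the earlier number series and -0.59 between the later pair. Jag2 averaged 244 ± 20.4 after lesion and 299 ± 28.6 after sham surgery (log2 change -0.29 ± 0.11, limma adjusted p = 0.0435). That call was lost with DESeq2 (adjusted p = 0.0743), without the filter on low values (limma adjusted p = 0.0572) and without lesion replicate 1, sham replicate 1 or sham replicate 3 (limma adjusted p = 0.158, 0.117 and 0.159). Hes1 was at 92.1, 73.5 and 94.8 after lesion, against 137, 85.5 and 130.2 after sham surgery (log2 change -0.41, 95% interval -0.81 to -0.02, limma adjusted p = 0.0870). Without sham replicate 2, its low library, the adjusted p of Hes1 was 0.0136 by limma. Heyl averaged 220.4 ± 67.5 after lesion and 253 ± 18.9 after sham surgery (log2 change -0.24, 95% interval -0.64 to 0.16, limma adjusted p = 0.317). Its call appeared only without lesion replicate 2 (log2 change -0.46, limma adjusted p = 0.0107). Hey1 (log2 change -0.06, 95% interval -0.25 to 0.14), Jag1 (0.09, -0.16 to 0.34) and Dll1 (-0.28, -0.78 to 0.22) were not called, and Dll1 rested on 21.4 ± 2.59 after lesion and 26.2 ± 1.70 after sham surgery.

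Of the other pathway genes 50 were tested after lesion, with 12 higher and 9 lower, against 41.2% of all genes called. The median log2 change of the 50 was 0.05. The nuclear complex and corepressor list held 7 of the rises among its 14 genes, with 2 lower. Rbpj averaged 849 ± 76.5 after lesion and 527 ± 69.7 after sham surgery (log2 change 0.69, limma adjusted p = 0.000154). The corepressor gene Tle3 averaged 621 ± 59.0 after lesion and 354 ± 8.19 after sham surgery (log2 change 0.81, limma adjusted p = 1.40e-05). Of 4 further target genes tested, 2 were lower, both of them direct Notch targets in other tissues. Nrarp averaged 359 ± 48.2 after lesion and 515 ± 23.8 after sham surgery (log2 change -0.53, limma adjusted p = 0.00124). Hes5 averaged 10.5 ± 4.63 after lesion and 23.7 ± 6.39 after sham surgery (log2 change -1.15, limma adjusted p = 0.0202). Fbxw7, a ubiquitin ligase subunit that marks the Notch intracellular domain for breakdown, averaged 1024 ± 49.9 after lesion and 1573 ± 78.8 after sham surgery (log2 change -0.62, limma adjusted p = 2.30e-05). Notch4 and Dll4 were not called (limma adjusted p = 0.249 and 0.844). Nrarp and Hes5 were no longer called in the fit over all 24 libraries (limma adjusted p = 0.162 and 0.255). Hes5 also lost its call when lesion replicate 3, sham replicate 2 or sham replicate 3 was left out (limma adjusted p = 0.0726, 0.0875 and 0.0630).

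Macrophage markers were higher in 8 of 9 tested after lesion, with a summed level of 2460 to 3825 after lesion and 1166 to 1230.02 after sham surgery. Fibroblast markers were higher in 6 of 8, with sums of 10600.2 to 12767 after lesion and 8135 to 10564 after sham surgery. Neuronal markers were lower in 5 of 10 with 3 higher, with sums of 226857 to 252436 after lesion and 254693 to 270945 after sham surgery. Endothelial markers were higher in 3 of 12, and mural cell markers in 3 of 11 with 1 lower. Satellite glia markers were split, with 2 of 10 higher and 2 lower. The part of these lists in the values of the 10 genes was not tested.

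**Figure D2:**
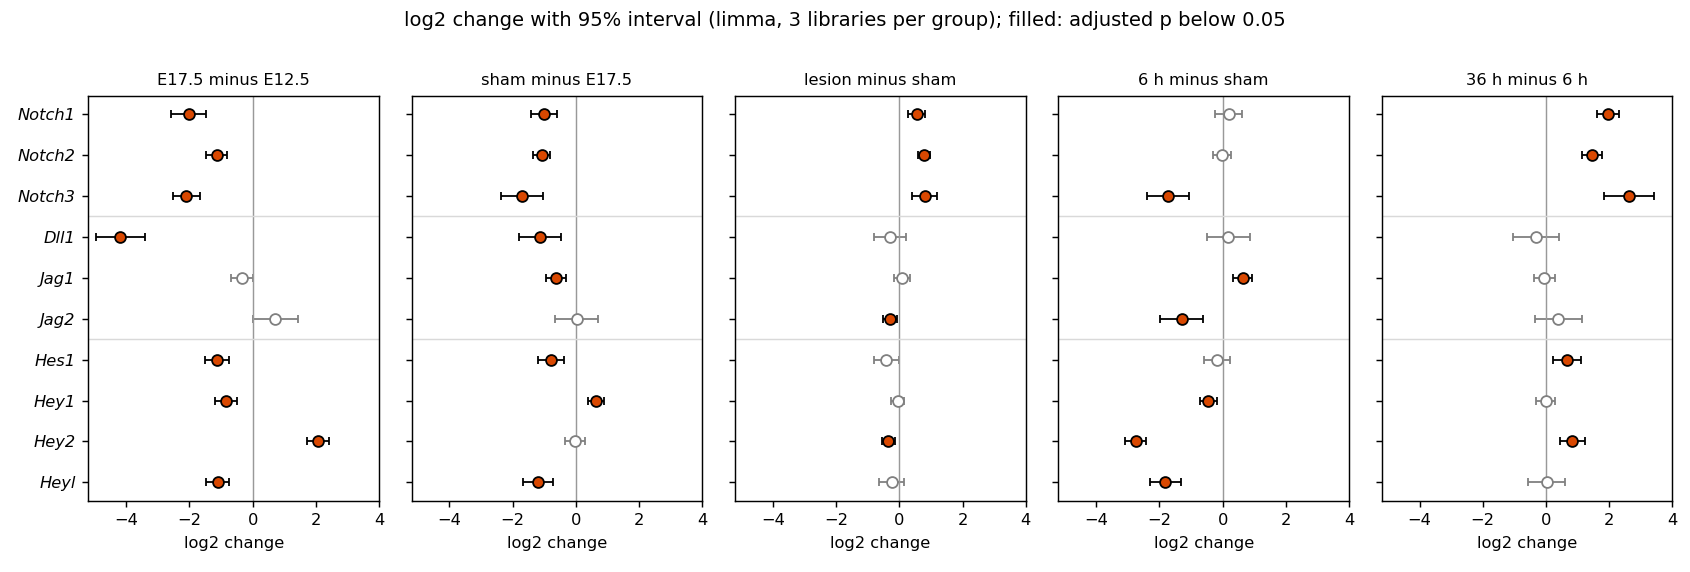
Log2 change with its 95% interval for each gene in 5 comparisons (limma, 3 libraries per group); filled points have an adjusted p below 0.05. The 3 receptors lie left of 0 in E17.5 minus E12.5 and in sham minus E17.5. They lie right of 0 in lesion minus sham, where Jag2 is the filled ligand, and in 36 h minus 6 h. No ligand is filled in 36 h minus 6 h.

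In culture all 3 receptors, Hes1 and Hey2 were higher at 36 h than at 6 h. None of the ligands Dll1, Jag1 and Jag2 was called between these times, whereas Dll4, outside the 10 genes, was higher. Over 6, 12, 24 and 36 h, the F test called 6 of the 10 genes (Notch1, Notch2, Notch3, Dll1, Hes1 and Hey2), against 45.7% of all 15006 genes tested. From 6 to 36 h, 5 of the 10 were higher and 0 lower at 36 h, against 50.6% of all genes called, 25.3% as higher and 25.3% as lower. Of the 10 genes 5 had no overlap between 36 h and 6 h, as had 59% of all genes. The median log2 change was 0.52 over the 10 genes and 0.02 over all genes.

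Notch1 was at 463, 522 and 391 at 6 h, at 740.3, 1099 and 1103 at 12 h, at 1304, 1321 and 1035 at 24 h, and at 1695, 1960.0 and 1697 at 36 h. Every 36 h library was above every 24 h library, and the log2 change from 6 to 36 h was 1.96 ± 0.17 (limma adjusted p = 1.68e-07). Notch2 averaged 382 ± 66.9, 624 ± 57.4, 791 ± 92.6 and 1047 ± 66.2 at 6, 12, 24 and 36 h, with a log2 change of 1.47 ± 0.15 from 6 to 36 h (limma adjusted p = 9.89e-07). Notch3 was at 40.7, 46.7 and 31.7 at 6 h, at 42.9, 144 and 144 at 12 h, at 226, 264 and 160.4 at 24 h, and at 241, 312 and 197 at 36 h. The shallow first library at 12 h was at the 6 h level, and its group overlapped the 6 h group, whereas all libraries at 24 and 36 h lay above it. The log2 change of Notch3 from 6 to 36 h was 2.62 ± 0.37 (limma adjusted p = 3.37e-05).

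In the fit of the 12 culture libraries, limma called genes of the 10 in the first of the 3 intervals and none in the other two. Between 12 and 6 h, 4 were called, all higher at 12 h, against 10.6% of all genes called, 5.86% as higher and 4.72% as lower. Without overlap between 12 h and 6 h were 5 of the 10 genes and 26.5% of all genes. Notch1 rose by a log2 change of 1.08 ± 0.17 (limma adjusted p = 0.000811), Notch2 by 0.72 ± 0.15 (0.00569), Notch3 by 1.27 ± 0.37 (0.0398) and Hes1 by 0.72 ± 0.20 (0.0349). The calls of Notch1 and Notch2 held whichever library was left out. With 1 library left out, Hes1 kept its call only without 12 h replicate 3 (limma adjusted p = 0.0382), and Notch3 only without 12 h replicate 1, where its log2 change was 1.85 (limma adjusted p = 0.000121). Without any other of the 6 libraries, limma adjusted p was between 0.0527 and 0.164 for Notch3 and between 0.0622 and 0.0905 for Hes1, and without the filter on low values it was 0.0731 for Notch3 and 0.0520 for Hes1. Dll1 missed the threshold with limma (log2 change 1.00, adjusted p = 0.0744) and passed it with edgeR (0.0437) and DESeq2 (0.0291).

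Between 24 and 12 h limma called 0 of the 10 genes, against 11.6% of all genes (4.82% higher and 6.74% lower), and 3 genes (Hey2, Notch2 and Notch3) had an unadjusted p below 0.05. There edgeR called 0 and DESeq2 called 1, Notch3 (adjusted p = 0.0320). Limma called Notch3 and Hey2 there in the fit over all 24 libraries (adjusted p = 0.0205 and 0.0387), and Notch3 also without 12 h replicate 2 or 3 (0.0367 and 0.0459). The groups did not overlap in 4 of the 10 genes, Hey2, Notch2, Notch3 and Heyl, and in 30.5% of all genes. Between 36 and 24 h limma again called 0, against 2.65% of all genes (1.11% higher and 1.55% lower), and 3 genes (Dll1, Notch1 and Notch2) had an unadjusted p below 0.05. There edgeR called 0 and DESeq2 called 2, Notch1 (adjusted p = 0.0176) and Dll1 (0.0403). Limma called Dll1, lower at 36 h, in the fit over all 24 libraries (adjusted p = 0.0398) and without 36 h replicate 1 (0.0431). Here 4 of the 10 genes (Dll1, Notch1, Notch2 and Hey1) and 29.5% of all genes had no overlap.

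Dll1 was higher at the middle times than at either end. It was at 29.8, 20.9 and 42.3 at 6 h, at 66.2, 61.4 and 54.6 at 12 h, at 51.6, 61.1 and 48.6 at 24 h, and at 37.7, 23.3 and 14.8 at 36 h. All libraries at 12 and 24 h were above all at 6 and 36 h, and the F test over the 4 times called it (limma adjusted p = 0.0104). The 36 h and 6 h libraries overlapped (log2 change -0.33, 95% interval -1.05 to 0.40). Jag1 means differed little between times, at 414 ± 15.6, 413 ± 53.7, 408 ± 44.4 and 404 ± 71.7 in order of time, with a log2 change of -0.05 from 6 to 36 h (95% interval -0.38 to 0.28). Jag2 averaged 122 ± 19.4, 82.4 ± 41.3, 120 ± 31.6 and 159 ± 25.0 in order of time and was not called by the F test (limma adjusted p = 0.0890), and its lowest library was 12 h replicate 1 at 35.1.

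Of the targets, Hes1 averaged 102 ± 5.25, 169.9 ± 38.8, 179 ± 17.6 and 164 ± 35.7 in order of time. It was higher at 36 than at 6 h (log2 change 0.66 ± 0.20, limma adjusted p = 0.0132), a call lost without 36 h replicate 1 (limma adjusted p = 0.0668). Without 6 h replicate 2 its F test also missed the threshold (limma adjusted p = 0.0638). Hey2 was at 343, 247 and 244 at 36 h, against 159, 123 and 183 at 6 h. The groups did not overlap (log2 change 0.84 ± 0.18, limma adjusted p = 0.00143), and both stayed below the lowest library of the operated adults. Hey1 (log2 change -0.01, 95% interval -0.31 to 0.29) and Heyl (0.02, -0.55 to 0.60) were not called between 36 and 6 h.

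**Figure D3:**
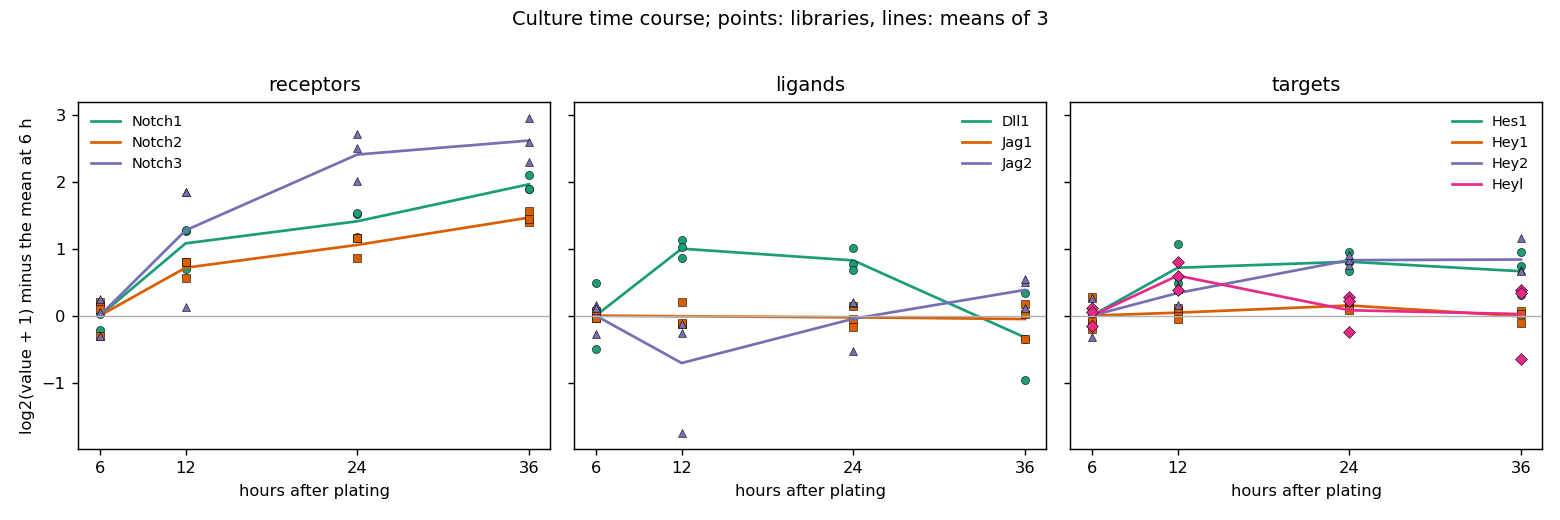
Log2(value + 1) minus the mean at 6 h against hours after plating, for receptors, ligands and targets; points are libraries and lines join means of 3. At 36 h the receptors stand 1.47 to 2.62 above 6 h, and the highest mean of Dll1 is at 12 h.

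Of the other pathway genes 48 were tested in culture, and 21 were higher and 7 lower at 36 than at 6 h, against 50.6% of all genes called. The median log2 change of the 48 was 0.29. The remaining receptor, Notch4, and the Delta ligand Dll4 were among those higher. Both were higher at 12 than at 6 h already (limma adjusted p = 0.0473 and 0.00151). Notch4 averaged 264 ± 25.1 at 36 h and 102 ± 15.4 at 6 h (log2 change 1.38, limma adjusted p = 1.95e-05). Dll4 averaged 114 ± 14.4 at 36 h and 21.7 ± 7.47 at 6 h (log2 change 2.39, limma adjusted p = 6.10e-06). Receptor processing genes were higher in 6 of 10 with 1 lower, and the gene of the shedding protease ADAM17 averaged 697 ± 35.4 at 24 h and 405 ± 17.1 at 12 h (log2 change 0.78, limma adjusted p = 0.00176). The Fringe gene Lfng averaged 74.3 ± 14.2 at 36 h and 18.7 ± 7.30 at 6 h (log2 change 1.99, limma adjusted p = 0.000406). Fbxw7 was lower at 36 h, at 483 ± 45.8 against 1200.0 ± 213 at 6 h (log2 change -1.30, limma adjusted p = 1.69e-06). The corepressor gene Tle1 averaged 502 ± 52.7 at 36 h and 1024 ± 67.2 at 6 h (log2 change -1.03, limma adjusted p = 3.50e-06). Rbpj (1211 ± 143 at 36 h and 1036 ± 94.6 at 6 h, limma adjusted p = 0.179) and Nrarp (107 ± 21.5 at 36 h and 117 ± 18.5 at 6 h, limma adjusted p = 0.633) were not called.

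In the same cultures 11 of 12 endothelial markers were higher at 36 h, with a summed level of 5747 to 7548 at 36 h and 3233 to 4032 at 6 h. Mural cell markers were higher in 5 of 10 tested, satellite glia markers in 6 of 10 with 2 lower, and neural crest and dividing precursor markers in 5 of 7. Neuronal markers were lower in 6 of 10, with a sum of 76410 to 102244 at 36 h and 131496 to 152569 at 6 h. Fibroblast markers were higher in 4 of 8, with a sum of 6579 to 6968 at 36 h and 2756 to 3561 at 6 h. Macrophage markers were higher in 4 of 8 with 1 lower (427 to 454 at 36 h and 261 to 314 at 6 h), and myelinating Schwann cell markers lower in 4 of 10 with 1 higher. The part of these shifts in the values of the 10 genes was not tested.

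Comparisons between the experiments also cross library number series, and group and series again cannot be told apart. Sham-operated adult ganglia against E17.5 gave 1 of the 10 genes higher and 7 lower, against 56.6% of 15935 genes called, 28.1% higher and 28.5% lower. No overlap was seen in 8 of the 10 genes and in 64.6% of all genes. Median log2 changes were -0.90 over the 10 genes and -0.01 over all. All 3 receptors fell, with log2 changes of -1.02 ± 0.20 for Notch1, -1.09 ± 0.13 for Notch2 and -1.70 ± 0.33 for Notch3 (limma adjusted p = 0.000176, 3.21e-07 and 0.000103). Dll1 (-1.14), Jag1 (-0.63), Hes1 (-0.79) and Heyl (-1.20) were lower too, with limma adjusted p of at most 0.00451. Hey1 alone was higher, at 470.4, 514 and 502 after sham surgery, against 265, 332 and 365 at E17.5 (log2 change 0.64 ± 0.13, limma adjusted p = 0.000180). Its groups did not overlap, with every sham library above every E17.5 library. Hey2 averaged 1036 ± 11.2 after sham surgery and 1061 ± 92.5 at E17.5 (log2 change -0.03, 95% interval -0.36 to 0.30), and Jag2 had a log2 change of 0.03 (95% interval -0.65 to 0.70). Of 53 other pathway genes tested, 9 were higher and 17 lower after sham surgery. Rises included Psen2 (412 ± 9.71 after sham surgery and 147 ± 13.2 at E17.5, limma adjusted p = 7.73e-08) and Neurl1a, a ligase gene acting on ligands (456 ± 37.8 after sham surgery and 227 ± 48.9 at E17.5, limma adjusted p = 0.000127). The falls with the largest change were in the Delta-like genes Dlk1 (14.1 ± 1.90 after sham surgery and 1210.0 ± 123 at E17.5, log2 change -6.33, limma adjusted p = 9.52e-09) and Dlk2 (0, 0 and 1.15 after sham surgery and 38.9, 49.4 and 97.1 at E17.5, limma adjusted p = 2.14e-07). With 2 reads in all behind the sham values of Dlk2, no fold is given. Neural crest and dividing precursor markers were lower in 8 of 10 (sums of 5667 to 6439 after sham surgery and 9865 to 12454 at E17.5). Endothelial markers were lower in 7 of 12 with 1 higher (1794 to 2023 after sham surgery and 4035 to 4639 at E17.5), and fibroblast markers in 6 of 8 with 1 higher (8135 to 10564 after sham surgery and 34557 to 44205 at E17.5). Mural cell markers were lower in 5 of 11 with 3 higher (2559 to 2946 after sham surgery and 3079.9 to 3414 at E17.5). Myelinating Schwann cell markers were higher in 10 of 10, satellite glia markers in 5 of 10 with 1 lower, and neuronal markers in 4 of 10 with 2 lower. The part of these lists was not tested.

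Cultured cells at 6 h against sham-operated ganglia gave 1 of the 10 genes higher and 5 lower, against 47.8% of 15935 genes called, 23.3% higher and 24.5% lower, with median log2 changes of -0.32 over the 10 genes and -0.06 over all. The groups did not overlap in 6 of the 10 genes and in 62.7% of all genes. Hey2 was at 159, 123 and 183 at 6 h, against 1033, 1048 and 1027 after sham surgery. The gap was wider than in any other of the 10 genes (log2 change -2.75 ± 0.16, limma adjusted p = 2.65e-12). Heyl averaged 71.4 ± 7.03 at 6 h and 253 ± 18.9 after sham surgery (log2 change -1.81 ± 0.24, limma adjusted p = 1.31e-06). Notch3 had a log2 change of -1.73 ± 0.33, Jag2 of -1.30 ± 0.33 and Hey1 of -0.46 ± 0.13 (limma adjusted p = 0.000135, 0.00237 and 0.00515). Jag1 was the gene higher in culture, at 414 ± 15.6 at 6 h and 267 ± 15.7 after sham surgery (log2 change 0.63 ± 0.15, limma adjusted p = 0.00113). Notch1 (95% interval of the log2 change -0.23 to 0.61), Notch2 (-0.29 to 0.26), Dll1 and Hes1 were not called. Of 53 other pathway genes tested, 12 were higher and 12 lower. Nrarp (117 ± 18.5 at 6 h and 515 ± 23.8 after sham surgery, log2 change -2.14, limma adjusted p = 2.83e-07) and Lfng (18.7 ± 7.30 at 6 h and 63.1 ± 5.43 after sham surgery, log2 change -1.78, limma adjusted p = 4.69e-05) were lower. Rbpj was higher (1036 ± 94.6 at 6 h and 527 ± 69.7 after sham surgery, log2 change 0.98, limma adjusted p = 7.31e-07), as were the coactivator gene Maml2 (459 ± 49.5 at 6 h and 209 ± 16.6 after sham surgery, limma adjusted p = 1.24e-05) and the ligase gene Mib1 (387 ± 121 at 6 h and 182 ± 16.1 after sham surgery, limma adjusted p = 9.61e-05). Mural cell markers were lower in 6 of 11 with 0 higher (sums of 2009 to 2412 at 6 h and 2559 to 2946 after sham surgery), and myelinating Schwann cell markers in 9 of 10 with 1 higher (20511 to 28510.0 at 6 h and 70644 to 88805 after sham surgery). Endothelial markers were higher in 5 of 12 with 2 lower (3233 to 4032 at 6 h and 1794 to 2023 after sham surgery). Macrophage markers were lower in 6 of 9 with 1 higher (261 to 314 at 6 h and 1166 to 1230.02 after sham surgery), and fibroblast markers in 6 of 8 with 1 higher (2756 to 3561 at 6 h and 8135 to 10564 after sham surgery). Neuronal markers were lower in 7 of 10 with 1 higher, and satellite glia markers in 6 of 10 with 2 higher. The part of these lists was not tested.

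Across all 8 groups, the ratio of the highest to the lowest group mean set the genes apart. It was 54.8 for Dll1 (1176 at E12.5 and 21.4 after lesion), 47.0 for Notch3 (1867 at E12.5 and 39.7 at 6 h) and 17.7 for Heyl (1261 at E12.5 and 71.4 at 6 h). It was 8.46 for Notch1, 6.85 for Hey2, 5.04 for Hes1, 4.74 for Notch2 and 3.84 for Jag2. Jag1 and Hey1 varied least, with ratios of 1.96 and 1.78. The order of the means for Notch1 was E12.5, 36 h, 24 h, 12 h, E17.5, lesion, 6 h and sham, and the libraries of neighbours overlapped from 24 h to E17.5 and from lesion to sham. For Notch2 it was E12.5, 36 h, E17.5, 24 h, lesion, 12 h, sham and 6 h, with overlap of E17.5 with 24 h, lesion with 12 h, and sham with 6 h. For Notch3 it was E12.5, E17.5, 36 h, lesion, 24 h, sham, 12 h and 6 h, and neighbours overlapped from 36 h downwards.

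For Dll1 the order was E12.5, 12 h, E17.5, 24 h, 6 h, sham, 36 h and lesion, with gaps only below E12.5 and below 24 h. Jag1 was in the order E12.5, E17.5, 6 h, 12 h, 24 h, 36 h, lesion and sham, with gaps only below E12.5 and below 36 h. Jag2 was in the order E17.5, sham, lesion, E12.5, 36 h, 6 h, 24 h and 12 h. Lesion was apart from its neighbours sham and E12.5, but E17.5, at 211 to 502, spanned the lesion range of 221 to 260. Hey2 fell into a high set (E17.5, sham, lesion) and a low set (36 h, 24 h, E12.5, 12 h, 6 h). The lowest library of the high set was at 684 and the highest of the low set at 343. Heyl ran from E12.5 through E17.5, sham and lesion to 12, 24, 36 and 6 h, with overlap of sham with lesion and among the last 3 groups. Hes1 was in the order E12.5, E17.5, 24 h, 12 h, 36 h, sham, 6 h and lesion, with a gap below E12.5. Among the later neighbours only 6 h and lesion were apart, and a sham library at 85.5 lay within the lesion range of 73.5 to 94.8. Hey1 was in the order E12.5, sham, lesion, 24 h, 12 h, 6 h, 36 h and E17.5, with gaps below E12.5 and below lesion.

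Per length, the make-up of each class of transcript differed between groups. The values are shares of the summed normalized reads per kb of exon within a class, averaged over 3 libraries. Each class held only its genes among the 10, so Notch4 and Dll4, with mean values of 264 and 114 at 36 h, were left out. Among the ligands, Dll1 made up 10.9 ± 1.27% at E17.5 and 69.9 ± 9.28% at E12.5, and 5.70 to 15.9% in the other groups. Jag1 held 65.0 to 69.5% of the transcripts of these 3 ligands in the cultures, against 42.1 ± 2.28% after sham surgery, where Jag2 held 51.5 ± 2.29%. Among the receptors, Notch3 made up 25.1 ± 3.90% at E17.5 and 30.7 ± 4.63% at E12.5, 19.0 ± 1.29% after lesion and 17.5 ± 2.90% after sham surgery. In culture its share averaged 5.50, 7.40, 11.6 and 9.71% at 6, 12, 24 and 36 h, and Notch1 held 54.0 to 59.0% there. Among the targets, Hey2 made up 51.1 ± 2.02% at E17.5 and 10.8 ± 1.04% at E12.5, and 54.4 ± 1.46% after sham surgery. Hey1 led the targets at every culture time, from 38.8 to 50.6%.

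**Figure D4:**
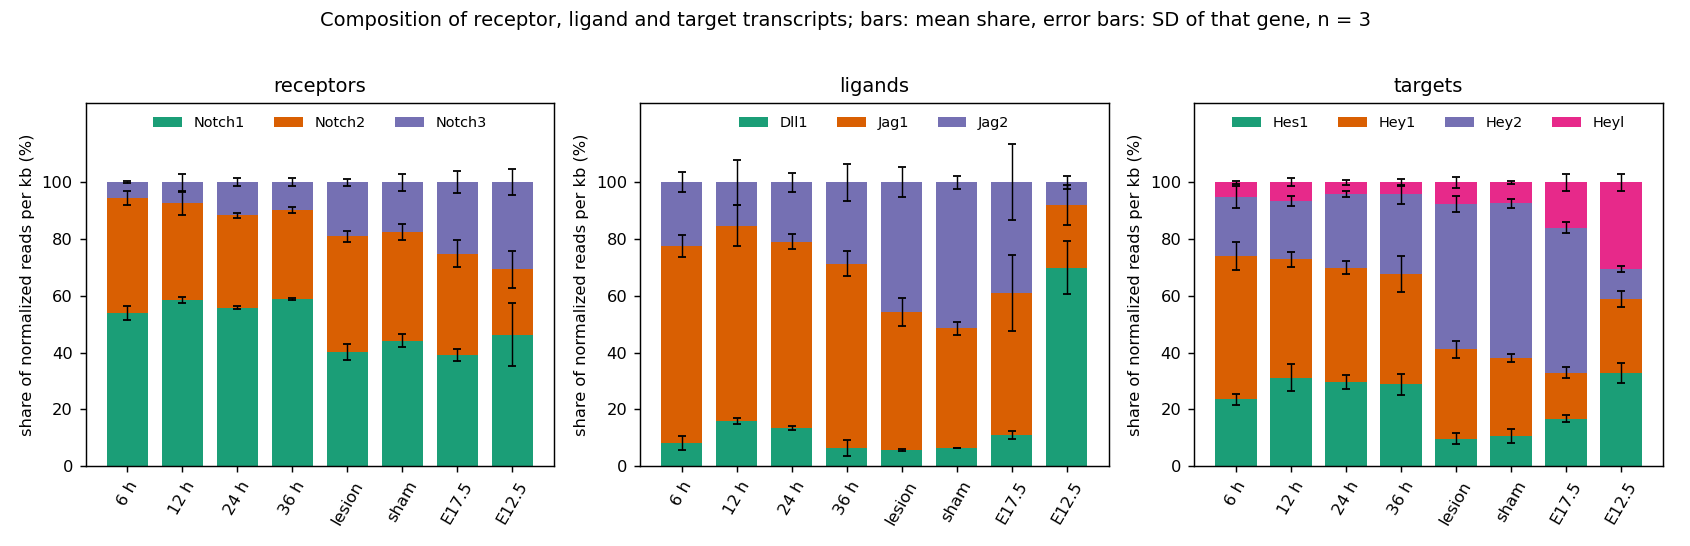
Share of normalized reads per kb of exon held by each gene within receptors, ligands and targets, as the mean of 3 libraries with the SD of each gene at the top of its segment. Dll1 fills 69.9% of the ligand bar at E12.5 and at most 15.9% elsewhere, and Hey2 fills over 51% of the target bar at E17.5, after sham surgery and after lesion.

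By GENCODE M21 on GRCm38 (mm10), all 10 are protein-coding genes. Notch1 lies at chr2:26457903-26516663 (minus strand), Notch2 at chr3:98013527-98150361 (plus), Notch3 at chr17:32120820-32166852 (minus) and Dll1 at chr17:15367354-15376872 (minus). Jag1 lies at chr2:137081456-137116644 (minus) and Jag2 at chr12:112907819-112929776 (minus). Hes1 lies at chr16:30064384-30067796 (plus), Hey1 at chr3:8663359-8667256 (minus), Hey2 at chr10:30832359-30842801 (minus) and Heyl at chr4:123233556-123249875 (plus). The exons of Notch1, Notch2, Notch3 and Dll1 overlap those of other annotated genes, by at most 964, 541, 488 and 445 bases. How reads there were counted is not given, so the values of these 4 genes may hold some reads of their neighbours. The other 6 have no such overlap.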

How the data were processed

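RNA was measured by RNA-seq in 24 libraries of mouse lumbar dorsal root ganglia, 3 for each of 8 groups. Per the labels' protocols, RNA came from Qiazol lysates, and the TruSeq V2 kit was fed 10 ng. TopHat and mm10 are named in the submitters' processing notes; the sources used here give no version, counter or annotation. The deposited signal is the authors' read count divided by 1 factor per library, as read from the values: with the step of each library, 100.0% of 339603 values checked came out whole within 0.1 reads. The recovered counts were used for depth and for edgeR and DESeq2 as alternatives. Genes with a deposited signal of at least 10 in at least 3 libraries of a fit were tested.

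The values entered limma 3.58.1 (R 4.3.3) as log2(value + 1), with trended and robust moderation and Benjamini-Hochberg adjustment over all genes of a fit (threshold 0.05). Fold changes on this scale are understated for low genes. The embryonic, operated and culture libraries were fitted separately, and the comparisons between experiments came from 1 fit over all 24. Alternatives were pseudocounts of 0.5 and 8, no filter, TMM rescaling with edgeR 4.0.16, count tests with edgeR and DESeq2 1.42.0, other sets of samples, the library number series as a covariate, and leaving out each library. Limma was tried on simulated pairs of groups, with the same relative spread set for all genes. Such data do not cover the F test, the culture fit over all times or the fit over all 24 libraries. A trimmed mean value was one equal, in whole reads rounded down, to the mean of all libraries after dropping 20% of them at each end. The libraries under test were ranked as the highest, and at least 3 reads were needed. Where only some libraries of a group matched, its others had to exceed 3 times the trimmed mean.

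Named pathway genes were Notch4, Dll3, Dll4, Hes5 and Rbpj, and per comparison up to 2 rises and 2 falls with the largest change among called genes whose groups were apart and reached a mean of 50. Other genes are named as values beside a result. Genes alike in pattern were the 2 with the highest Pearson r per gene; some are not reported here. The 10 genes and all lists were chosen with earlier results of these data known.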

Additional observations from a re-analysis of the deposited data

How the results depend on the processing

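Over all alternatives, 1289 of 1330 results on single genes of the 10 stayed on the same side of the threshold, 23 lost a call and 18 gained one. No result called in the main fit or the alternative reversed direction, but sign changes where neither was called were counted as kept. Hey1 at 36 h against 6 h, for example, had log2 changes from -0.11 to 0.13. The F tests among these results have no direction. At E17.5 against E12.5, 2 of the 10 genes were higher with DESeq2, and 1 to 2 when a library was left out. The log2 change of Dll3 was -1.07 to 1.77 when a library was left out. It was 1.77, reversed, without E12.5 replicate 2, its only library there that did not hold a trimmed mean value. After lesion, 1 gene was lower without the filter and with DESeq2, and 1 to 3 when a library was left out. In the fit over all 24 libraries, 1 was called, 1 higher and 0 lower, with 2615 genes called in all against 5990. Between 12 and 6 h, 2 were called, both higher, without the filter, and 2 to 3 when a library was left out, with 880 to 2618 genes called in all. Between 24 and 12 h, 1 was called, higher, with DESeq2, 2 in the fit over all 24 libraries and 0 to 1 when a library was left out, with 731 to 2564 genes called in all. Between 36 and 24 h, 2 were called with DESeq2, 1 higher and 1 lower, 1 (lower) in the fit over all 24 libraries, and 0 to 1 when a library was left out. All genes called there numbered 249 without the filter, 1067 with DESeq2, 823 in the fit over all 24 libraries and 67 to 268 when a library was left out, against 398. Except where given above, the cause was not tested. No paired analysis was possible because the labels number each library singly and give no replicate number that groups share. At 9 to 12 reads, Notch3, Jag2 and Dll1 are limited by counting error in the shallowest cultures.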

Other observations

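Some genes of neural precursors and newly forming neurons had values at E12.5 equal to trimmed means. Hes5, the target of Notch best known from neural precursors, stood at 13.2, 12.8 and 13.0 in the 3 E12.5 libraries, each equal to the trimmed mean over all libraries, against 56.0, 42.3 and 97.1 at E17.5. The Delta-like gene Dll3 was at 12.7, 17.6 and 23.1 at E17.5, against 4.39, 274 and 4.33 at E12.5, where the low values are trimmed means. Dlk1, a Delta-like protein without the Notch-binding domain of the Delta ligands, was at 1186, 1100.45 and 1343 at E17.5, against 1452.5, 150.3 and 151 at E12.5, of which the last 2 are trimmed means. The proneural gene Neurog1 was at 0, 0 and 2.31 at E17.5 and at 3.84, 810.1 and 3.60 at E12.5, with trimmed means in E12.5 replicates 1 and 3.

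Among the genes most alike in pattern, over the 8 group means of log2(value + 1) out of 11791 candidates, were Fat1 (Pearson r = 0.994) and Kdm4a (0.9901) for Notch1. Terf2 (0.992) and Pcif1 (0.989) were among those for Notch2, and Tor2a (0.991) for Notch3. For the ligands they were Zfp105 (0.988) for Dll1, Nup160 (0.987) and Igf2bp2 (0.987) for Jag1, and Lrrn2 (0.968) and Sesn1 (0.962) for Jag2. For the targets they were Prorsd1 (0.988) and Lzic (0.984) for Hes1, Rbbp5 (0.964) and Gatc (0.964) for Hey1, Ehhadh (0.976) and Pomk (0.965) for Hey2, and Zfp39 (0.999) and Efnb3 (0.989) for Heyl. With 8 points that share their libraries, and E12.5 the highest group for 8 of the 10 genes, these values describe likeness in level only. Within the 10 genes, r was highest for Notch1 and Notch2 (0.952) and lowest for Jag1 and Hey2 (-0.65). It was -0.25 for Notch1 and Jag2, and 0.887 for Jag2 and Hey2.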
